A study of Bos taurus with 12 samples.

Results

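The genes described here are 4 genes of stratified squamous and basal epithelium, KRT5, KRT15, PKP1 and TGM1, among 6893 gene symbols that the array's probes could be matched to. They were chosen by name, by matching each symbol to a probe of the array, and each had 1 probe. They were taken from a squamous marker list that an earlier look at the CL-side season comparison of these same arrays had brought up, with its results known, so their values in that comparison are a description and no independent evidence of its direction.

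The study measured gene expression in endometrium, the inner lining of the uterus, biopsied from Japanese-Black cows at day 15 of the estrous cycle. There were 4 groups of 3 arrays each: the uterine horn next to the ovary with the corpus luteum (CL side) in summer (early September), the CL side in autumn (mid-November), the opposite horn (non-CL side) in summer, and the non-CL side in autumn. The corpus luteum is the ovarian body that secretes progesterone. All groups share the breed and the cycle day, the labels name no treatment and no age, and a season was sampled at 1 time of year, so season cannot be told apart from anything else that went with that time. The labels do not say which year each sample is from, so whether years were spread evenly over the groups is unknown. Whether the 3 samples of a group are from 3 different cows is not stated in the labels. The p-values below therefore speak only of the spread among these samples, which may be technical.

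Stratified squamous epithelium covers the vagina and the outer cervix, as it does the skin, whereas the endometrium carries a simple columnar epithelium over glands and stroma. In a stratified epithelium, basal cells rest on the basement membrane and hold keratin filaments that are anchored in desmosomes, the junctions between cells. As the cells move up, transglutaminases cross-link proteins beneath the membrane into a cornified envelope. KRT5 is the type II keratin of basal cells, KRT15 is a type I keratin of basal cells, PKP1 (plakophilin 1) is a plaque protein that strengthens desmosomes, and TGM1 (transglutaminase 1) is an enzyme that builds the cornified envelope.

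Each level rests on a single probe of 60 bases, and the first 30 bases of each are shown because they identify the stretch of transcript that was measured. They are written 5′ to 3′ as in the deposited scanner files, and no base is singled out.
KRT5: ggaagagcttcaagagctaagagcctgcag
KRT15: cagggaggtgcaagaaacagctgtattgtg
PKP1: aggggaccgggggctttcttgagttaaggg
TGM1: acccgggcccctgggaggagctgatctcat

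The longest run of bases that a probe had in common with any other probe on the array was 13 bases for KRT5, 15 for KRT15, 12 for PKP1 and 14 for TGM1, and none of these partners was annotated as a keratin, plakophilin or transglutaminase. The G and C content of the whole probes was 53.3% for KRT5, 45.0% for KRT15, 45.0% for PKP1 and 55.0% for TGM1. The KRT15 probe was labelled in the files as a locus similar to keratin 15, and its symbol came from the reference gene table.

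A level is the log2 of the probe's processed signal over the 75th percentile of its array, so that 0 is the signal of that percentile. Season changes are given as summer minus autumn and side differences as CL minus non-CL, on the same log2 scale. On 11 arrays the 75th percentile lay at a processed signal of 3516 to 4418, whereas it was 2007 on the CL-side summer array numbered 2. That array, CL-side summer replicate 2, stood apart from the rest: its median correlation with the others was 0.928, while any pair of the other 11 correlated at 0.972 or more. HOXA10, a homeobox gene of the uterus, had a level of −0.13 on it and 2.81 to 3.55 on the other arrays. FOXL2, a transcription factor of the bovine endometrium, had −2.38 there and 0.36 to 1.44 elsewhere. HOXA10 and FOXL2 were singled out after their values were seen, and not all of the 9 genes tested in the list of endometrial and uterine identity were low there. OXTR, the oxytocin receptor gene, at −0.60 and ESR1, the estrogen receptor alpha gene, at −6.26 were highest on that array, while PGR, the progesterone receptor gene, at −1.71 was lowest. The score of the whole list, the average distance of its genes from their own means over the arrays, was −0.40 on it and −0.44 on non-CL-side summer replicate 1, with −0.26 to 0.44 on the other 10. Results of the 4 genes and of the lists that rest on CL-side summer replicate 2 are given with and without it. Levels come from whole biopsies, where fewer cells of a type and less RNA per cell cannot be told apart.

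KRT15 had the widest range of the 4 genes. On the CL side its level was 1.47, 3.57 and −1.08 in summer, against −3.51, −4.57 and −3.27 in autumn. Its non-CL-side level was −4.71, −0.91 and −1.51 in summer, against −3.11, −2.82 and −3.63 in autumn. All 3 CL-side summer arrays thus lay above all 3 CL-side autumn arrays, while on the non-CL side the seasons overlapped, with 1 summer array below and 2 above the autumn arrays. As processed signal, KRT15 read 12300, 23900 and 1940 on the CL-side summer arrays, against 381, 167 and 408 on the CL-side autumn arrays. It was well above background on all 12 arrays and saturated on none. Its SD over the 12 arrays was 2.48, which ranked 9 among 5968 genes, where the median SD was 0.31.

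KRT5 was faint on most arrays. On the CL side its level was −5.32, −2.83 and −6.40 in summer, against −6.61, −6.93 and −7.03 in autumn. Its non-CL-side level was −7.28, −5.80 and −6.52 in summer, against −6.33, −5.84 and −6.75 in autumn. The value of −7.28 is the floor set for all probes, and on that array, non-CL-side summer replicate 1, KRT5 was not well above background. CL-side summer replicate 2 stood highest, with a processed signal of 282, CL-side summer replicate 1 followed with 110, and the other 10 arrays lay between 22.1 and 64.7. CL-side summer replicate 3 was within the range of the non-CL-side arrays and only slightly above the CL-side autumn arrays. The SD of KRT5 over the 12 arrays was 1.18, rank 144 of 5968.

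PKP1 was measured well above background on all 12 arrays. On the CL side its level was 0.04, −1.61 and −1.41 in summer, against −2.06, −2 and −1.52 in autumn. Its non-CL-side level was −1.70, −0.79 and −0.75 in summer, against −1.52, −1.83 and −0.62 in autumn. The highest array was CL-side summer replicate 1, not replicate 2, and the seasons overlapped on both sides. Its SD over the arrays was 0.64, rank 808.

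TGM1 varied least. On the CL side its level was −3.49, −3.11 and −3.74 in summer, against −4.08, −3.99 and −3.92 in autumn. Its non-CL-side level was −3.56, −3.78 and −4.14 in summer, against −3.64, −3.43 and −4.16 in autumn. The CL-side summer arrays lay above the CL-side autumn arrays, and the non-CL-side arrays of both seasons, from −4.16 to −3.43, overlapped both. Its SD over the arrays was 0.32, close to the median gene.

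**Figure D1:**
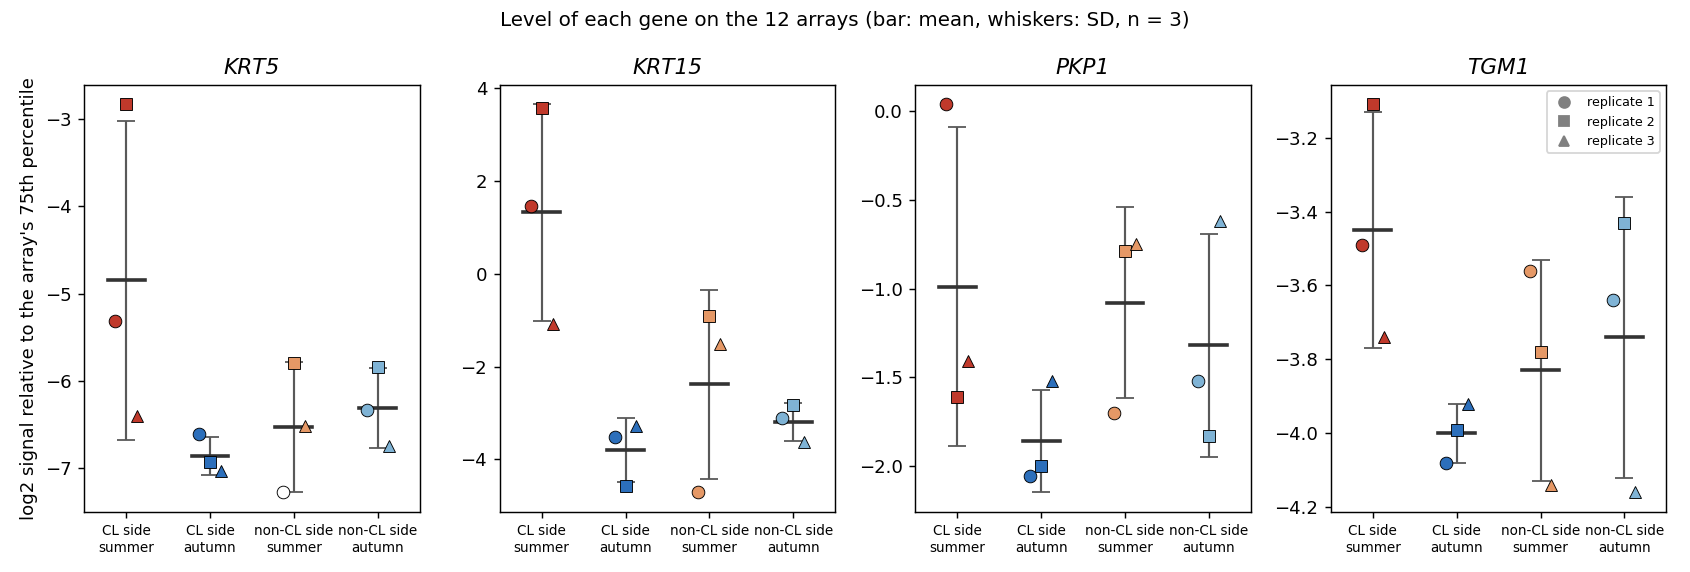
Level of KRT5, KRT15, PKP1 and TGM1 on each of the 12 arrays, as log2 signal relative to the array's 75th percentile, by group, with the bar at the group mean and whiskers of 1 SD (n = 3); each panel has its own vertical scale, and the open symbol marks the array on which KRT5 was not well above background. KRT15 spans 8.28 log2 units over the arrays and TGM1 1.05, and CL-side summer replicate 2 (square) is the highest array for KRT5, KRT15 and TGM1 but not for PKP1.

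By group mean, KRT15 was highest on the CL side in summer at 1.32 ± 2.33 (SD, n = 3), then on the non-CL side in summer at −2.38 ± 2.04, on the non-CL side in autumn at −3.19 ± 0.41 and on the CL side in autumn at −3.79 ± 0.69. Arrays of each neighbouring pair of groups in that order overlapped. KRT5 was highest on the CL side in summer at −4.85 ± 1.83, then on the non-CL side in autumn at −6.31 ± 0.46, on the non-CL side in summer at −6.53 ± 0.74 and on the CL side in autumn at −6.86 ± 0.22. PKP1 ran from −0.99 ± 0.90 on the CL side in summer through −1.08 ± 0.54 and −1.32 ± 0.63 on the non-CL side in summer and autumn to −1.86 ± 0.29 on the CL side in autumn. TGM1 ran from −3.45 ± 0.32 on the CL side in summer through −3.74 ± 0.38 and −3.83 ± 0.30 on the non-CL side in autumn and summer to −4 ± 0.08 on the CL side in autumn. The means of all 4 genes were thus highest on the CL side in summer and lowest on the CL side in autumn, with both non-CL-side groups between them. Neighbours in these orders had overlapping arrays for every gene, although the step of 3.70 between the CL-side and non-CL-side summer means of KRT15 was larger than the SD of either group.

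The first comparison set summer against autumn on the CL side. KRT15 averaged 1.32 in summer and −3.79 in autumn, a log2 change of 5.11 ± 1.15 (SE, 95% interval 2.57 to 7.65), or 34.5-fold, with an unadjusted p of 0.00111 and an adjusted p of 0.496 (limma). By size this was rank 5 among 12381 tested probes. KRT5 had a change of 2.01 ± 0.73 (0.38 to 3.64), or 4.03-fold, with an unadjusted p of 0.0203 and an adjusted p of 0.496. TGM1 had a change of 0.55 ± 0.23 (0.04 to 1.07, unadjusted p = 0.0381, adjusted p = 0.498), and PKP1 0.87 ± 0.46 (−0.16 to 1.89, unadjusted p = 0.0897, adjusted p = 0.51). No member passed the threshold, an adjusted p of 0.05, and nor did any of the 12381 probes. For KRT15, KRT5 and TGM1, 3 of the 4 genes, the summer arrays all lay above the autumn arrays, as they did for 7.97% of all probes, and the unadjusted p was under 0.05 in that direction for the same 3, against 6.37% of all probes. The members were chosen on this comparison, and nothing is read from their share.

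CL-side summer replicate 2 had a different weight in each gene. Without it, the CL-side season change was 3.98 ± 1.07 for KRT15 (unadjusted p = 0.0043), 1 ± 0.45 for KRT5 (unadjusted p = 0.0516), 0.38 ± 0.23 for TGM1 (unadjusted p = 0.135) and 1.18 ± 0.49 for PKP1 (unadjusted p = 0.0388). The adjusted p was 0.84 for KRT15, KRT5 and PKP1 and 0.842 for TGM1. KRT5 thus lost as much of its change as remained, while PKP1 gained. PKP1 leaned instead on CL-side summer replicate 1, without which its change was 0.35 ± 0.39. In the other direction, without CL-side summer replicate 3, the lowest of the CL-side summer arrays for KRT15, KRT5 and TGM1, the changes were 6.31 for KRT15 (adjusted p = 0.0827) and 2.78 for KRT5 (adjusted p = 0.177). The change of KRT15 was between 3.98 and 6.31 under all 22 alternative settings tried, with adjusted p-values of 0.0827 to 0.886.

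The arrays were on 2 slides. The first held all 6 summer arrays and replicate 1 of both autumn groups, and the second the other 4 autumn arrays. With slide as a block in the fit, the CL-side season change was 4.93 for KRT15 (unadjusted p = 0.00827), 1.90 for KRT5, 1.06 for PKP1 and 0.54 for TGM1. On the first slide alone, where 1 CL-side autumn array remained, it was 4.83 (unadjusted p = 0.0541), 1.76, 1.06 and 0.64 for the same genes. The size of each change was thus similar within the slide, with the lone autumn array assumed to vary like the other groups. In the authors' deposited table the KRT5 values overlapped between seasons, at −4.94, −2.74 and −5.21 in summer and −4.13, −5.48 and −4.87 in autumn on the CL side, and a fit to that table gave a change of 0.53 for KRT5, against 4.95 for KRT15. How the authors treated low signals is not stated, and KRT5 was a low signal on most arrays. With normexp background correction, another way of handling low signals, KRT5 had a change of 1.15.

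The second comparison set summer against autumn on the non-CL side. KRT15 averaged −2.38 in summer and −3.19 in autumn, a change of 0.81 ± 1.15 (−1.73 to 3.36). The changes were −0.23 ± 0.73 for KRT5 (−1.86 to 1.4), 0.24 ± 0.46 for PKP1 (−0.78 to 1.27) and −0.09 ± 0.23 for TGM1 (−0.60 to 0.43). For 0 of the 4 genes were the seasons apart, against 2.62% of all probes that were higher without overlap and 3.45% that were lower. The adjusted p was 1 for each. The intervals were wide for KRT15 and KRT5, so a change of either sign of 1 log2 unit could not be told from none in them. In the same comparison 1.12% of all probes had an unadjusted p under 0.05.

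The season change itself was contrasted between the sides, CL side minus non-CL side. The contrast was 4.29 ± 1.62 for KRT15 (0.70 to 7.89, unadjusted p = 0.0237), the second largest in size of 12375 probes. It was 2.24 ± 1.04 for KRT5 (−0.06 to 4.54, unadjusted p = 0.0556), 0.64 ± 0.33 for TGM1 (−0.09 to 1.37, unadjusted p = 0.0798) and 0.62 ± 0.65 for PKP1 (−0.83 to 2.07). The adjusted p was 0.999 for each, and 1 of the 4 genes had an unadjusted p under 0.05 on the higher side, against 1.26% of all probes. Without CL-side summer replicate 2 the contrast was 3.17 ± 1.43 for KRT15 (unadjusted p = 0.0529, adjusted p = 1), 1.23 ± 0.60 for KRT5, 0.93 ± 0.66 for PKP1 and 0.47 ± 0.31 for TGM1. So a season change particular to the CL side was not called for any of the 4 genes. This contrast uses the CL-side arrays on which the genes were chosen, and is not independent of that choice.

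The third comparison set the CL side against the non-CL side in summer. KRT15 averaged 1.32 on the CL side and −2.38 on the non-CL side, a difference of 3.70 ± 1.15 (1.16 to 6.24), or 13-fold, rank 10 by size among 12389 probes (unadjusted p = 0.00866, adjusted p = 0.984). KRT5 differed by 1.68 ± 0.73 (0.06 to 3.31, unadjusted p = 0.0439, adjusted p = 0.984), TGM1 by 0.38 ± 0.23 (−0.14 to 0.89) and PKP1 by 0.08 ± 0.46 (−0.94 to 1.11). Of the 4 genes, 2 had an unadjusted p under 0.05 on the higher side, against 0.977% of all probes, and the sides overlapped for all 4, whereas 1.88% of all probes were higher on the CL side without overlap. This comparison shares the CL-side summer arrays with the one the genes were chosen on. Without CL-side summer replicate 2 the differences were 2.57 ± 1.07 for KRT15 (unadjusted p = 0.0381, adjusted p = 1), 0.67 ± 0.45 for KRT5, 0.39 ± 0.49 for PKP1 and 0.21 ± 0.23 for TGM1.

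Horns with the same number in the labels could be set beside each other. In summer KRT15 was higher on the CL side by 6.18, 4.48 and 0.44 in horns 1, 2 and 3, and KRT5 by at least 1.95 in horn 1, where its non-CL-side level was at the floor, by 2.97 in horn 2 and by 0.12 in horn 3. Both keratins thus differed most in horns 1 and 2 and hardly in horn 3. The CL-side array of horn 2 is CL-side summer replicate 2, so without it the large differences were in horn 1 only. The non-CL-side array of horn 1 had the lowest KRT15 level of all arrays, −4.71. TGM1 was higher on the CL side by 0.07, 0.67 and 0.41. PKP1 differed by 1.74 in horn 1 and by −0.82 and −0.66 in horns 2 and 3, so its sign was not shared.

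In autumn, the fourth comparison, KRT15 averaged −3.79 on the CL side and −3.19 on the non-CL side, a difference of −0.60 ± 1.15 (−3.14 to 1.95). KRT5 differed by −0.55 ± 0.73, PKP1 by −0.54 ± 0.46 and TGM1 by −0.26 ± 0.23. All 4 differences were below 0, the sides overlapped for each gene, and the adjusted p was 1, while 5.55% of all probes were lower on the CL side without overlap and 1.86% had an unadjusted p under 0.05. In same-numbered horns, KRT5 and PKP1 were lower on the CL side in 3 of 3, by −0.29, −1.09 and −0.28 for KRT5 and by −0.54, −0.17 and −0.91 for PKP1. KRT15 and TGM1 were lower in 2 of 3. The KRT5 signals were faint, at 44.3, 32.5 and 30.2 on the CL side and 53.7, 64.7 and 40.5 on the non-CL side. In the authors' deposited table KRT5 was lower on the CL side in horn 2 only. Its values there were −4.13, −5.48 and −4.87 on the CL side, against −5.35, −4.92 and −5.3. Over all genes, 43.7% had a side difference above 0 in autumn.

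**Figure D2:**
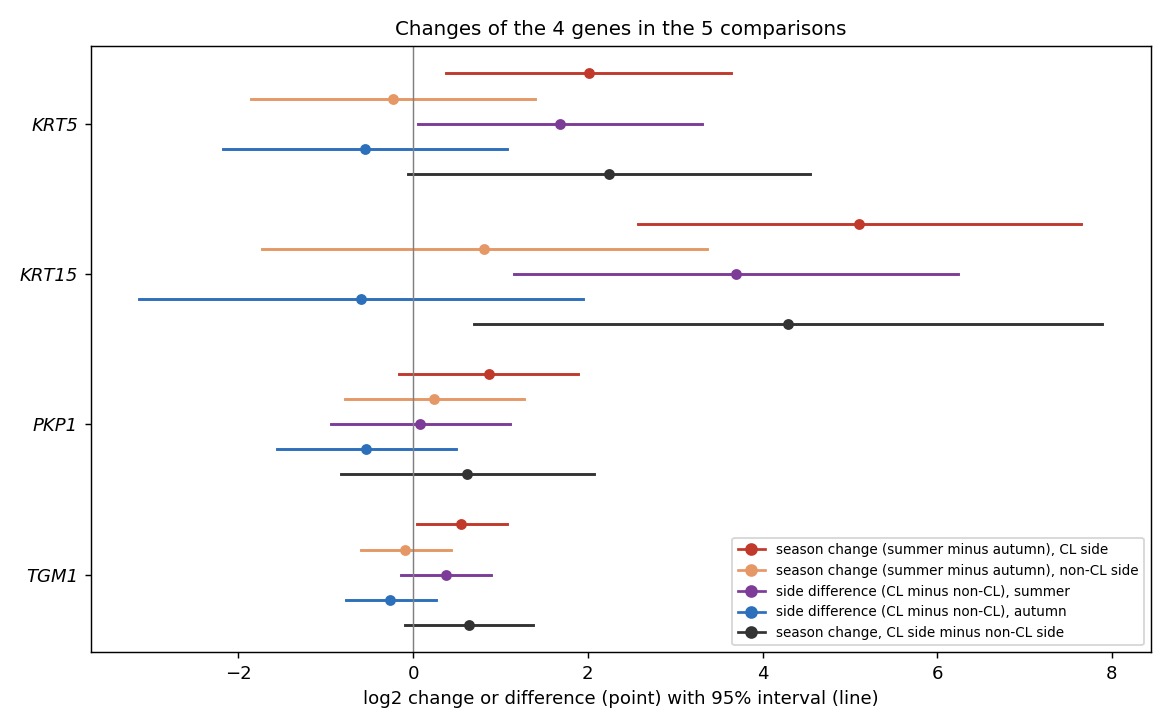
Log2 change or difference of each gene (points) with its 95% interval (lines) in the 5 comparisons of the fit over 12 arrays. The intervals of the CL-side season change lie above 0 for KRT5, KRT15 and TGM1 and those of the non-CL side span 0 for all 4 genes, with no adjusted p under 0.05.

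The other genes of stratified epithelium were taken from 3 lists, of basal keratins, adhesion proteins and regulators, of suprabasal keratins and the cornified envelope, and of desmosome proteins. Of 72 listed genes, 25 were matched to a probe and 18 were tested, the 4 members among them. On the CL side, 16 of the 18 had a season change above 0, with a median of 0.50, against 53.8% above 0 and a median of 0.03 over all genes, and 0 passed the threshold in either direction. Without the members, 12 of 14 were above 0, with a median of 0.44. The lists too were chosen with earlier results of these data known, so their counts are no independent evidence of a direction. Without CL-side summer replicate 2 the count was 12 of 18 with a median of 0.26, and 8 of 14 with a median of 0.16 when the members were left out too, against a median of 0.02 over all genes. Of the 14 genes other than the members, 4 had an unadjusted p under 0.05 on the higher side with all arrays, against 6.37% of all probes, and 0 without that array, against 3.42% (limma).

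Among the basal genes, LAMB3, a chain of the laminin that anchors basal cells to the basement membrane, had levels of 1.07, 1.86 and 0.22 on the CL side in summer and −0.19, 0.42 and −0.37 in autumn, a change of 1.1 ± 0.41 (unadjusted p = 0.0231). The seasons overlapped for LAMB3, and its change was 0.70 without CL-side summer replicate 2 (unadjusted p = 0.0991). NGFR, the low-affinity neurotrophin receptor, had a change of 0.42 ± 0.55, and −0.32 without that array. KRT14, the type I partner of KRT5 in basal cells, had a change of 0.12 ± 0.21, and −0.04 without that array, and stayed between −3.55 and −2.78 on all 12 arrays. The KRT14 probe thus did not share the range of KRT5 or KRT15, although CL-side summer replicate 2 was its highest array too. The basal list as a whole had 5 of 7 genes above 0 and a median of 0.42, and 3 of 7 and a median of −0.04 without that array.

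Among the suprabasal and cornified envelope genes, ZNF750, a zinc finger regulator of epidermal differentiation, had levels of −1.5, −0.23 and −1.26 on the CL side in summer and −2.39, −2.02 and −2.08 in autumn, a change of 1.17 ± 0.52 (unadjusted p = 0.0463), which was 0.78 without CL-side summer replicate 2 (unadjusted p = 0.175). Its non-CL-side level was −2.69, −1.05 and −0.71 in summer and −2.37, −2 and −1.17 in autumn, so the non-CL-side seasons overlapped. RHCG, an ammonium transporter, had a change of 0.71 ± 0.30 (unadjusted p = 0.0362), with −4.92, −3.73 and −5.02 in summer and −5.25, −5.40 and −5.14 in autumn. Its change was 0.30 without that array (unadjusted p = 0.0964). MAL, a membrane protein of apical sorting, had a change of 0.46 ± 0.23 (unadjusted p = 0.0756), and 0.16 without that array. All 6 tested genes of this list, TGM1 included, were above 0, with a median of 0.53, and 5 of 6 with a median of 0.26 without CL-side summer replicate 2.

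The 7 listed genes that were on the array but too dim to test were at background on most arrays. KRT10, the suprabasal keratin, OVOL1, a regulator of epidermal differentiation, and DSG1, the desmosomal cadherin of upper layers, were well above background on 0 of 12 arrays. The desmosomal cadherins DSC1 and DSC3 were so on 1 and 2 arrays and the keratin KRT80 on 2, none of them a summer array. KLK7, a protease of the cornified layer, was well above background on 2 arrays, at −5.06 on CL-side summer replicate 2 and at −6.75 on non-CL-side autumn replicate 1, and not on the other 10. No fold was computed for these genes.

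Among the desmosome genes, PERP, a tetraspan protein of desmosomes, had levels of 0.03, 1.39 and 0.08 on the CL side in summer and −0.61, −0.36 and −0.31 in autumn, a change of 0.93 ± 0.38 (unadjusted p = 0.0338). The CL-side seasons did not overlap for PERP, whose change was 0.48 without CL-side summer replicate 2 (unadjusted p = 0.14). PKP3, a plakophilin of many epithelia, had a change of 0.49 ± 0.34, and JUP, the plaque protein plakoglobin, 0.11 ± 0.28. Without that array these were 0.30 for PKP3 and −0.22 for JUP. All 5 tested desmosome genes, PKP1 included, were above 0, with a median of 0.49, and 4 of 5 with a median of 0.30 without that array. Desmosomes are also part of simple epithelia, so this list is not specific to a stratified one.

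**Figure D3:**
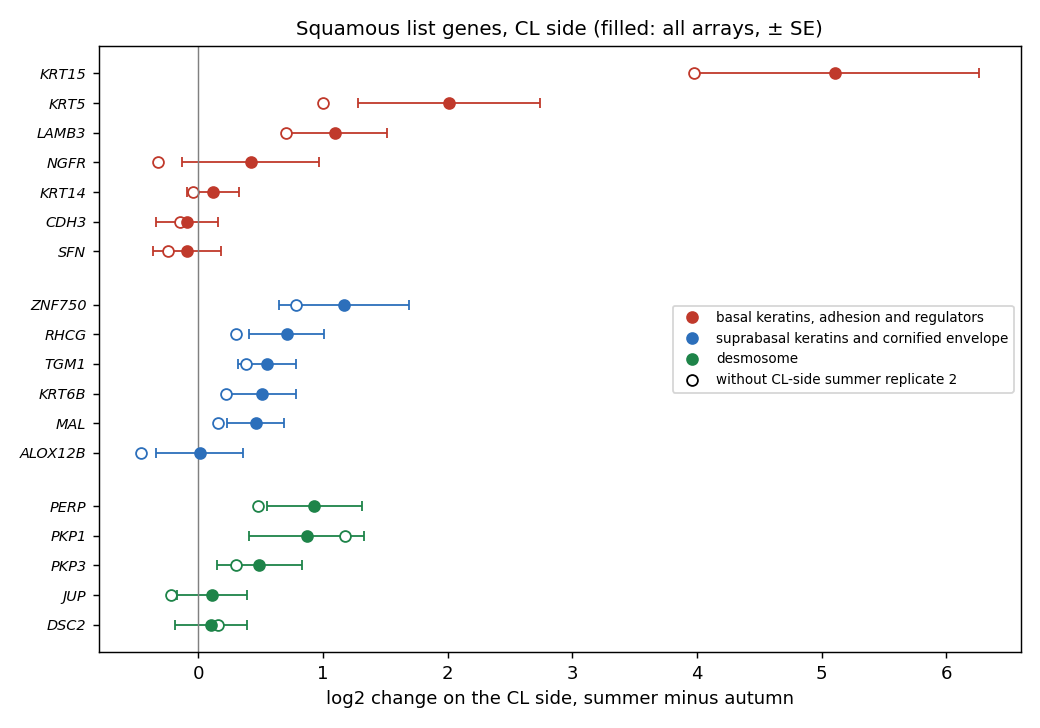
CL-side season change (summer minus autumn, log2) of the 18 tested genes of the 3 squamous lists, with all arrays (filled, ± SE) and without CL-side summer replicate 2 (open). With all arrays 16 of the 18 genes lie above 0, and 12 do without that array, and KRT15 and KRT5 differ most between both fits.

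On the non-CL side the same 18 genes had a median season change of 0.06 with 10 above 0. In summer the CL side exceeded the non-CL side for 16 of 18, with a median of 0.33, and for 9 of 18 with a median of 0.04 without CL-side summer replicate 2. In autumn 6 of 18 were above 0, with a median of −0.17 against −0.03 over all genes. The contrast of season changes between the sides had a median of 0.49 with 16 of 18 above 0, and a median of 0.34 with 11 of 18 above 0 without that array. Over all genes the share above 0 was 49.5% for the non-CL-side season change and 55.5% for the contrast. It was 51.5% for the side difference in summer and 43.7% for that in autumn. These comparisons share arrays with each other.

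In these other comparisons the genes of each list with the smallest p, members aside, had smaller values than KRT15. For the non-CL-side season change they were CDH3, the P-cadherin of basal cells, at 0.36 ± 0.25, MAL at 0.41 ± 0.23 and PKP3 at −0.45 ± 0.34. For the side difference in summer they were LAMB3 at 0.87 ± 0.41, RHCG at 0.48 ± 0.30 and PERP at 0.59 ± 0.38. For the side difference in autumn they were SFN, the stratifin of keratinocytes, at 0.46 ± 0.27, RHCG at −0.27 ± 0.30 and PKP3 at −0.53 ± 0.34. For the contrast between the sides they were LAMB3 at 0.85 ± 0.58, RHCG at 0.76 ± 0.42 and PERP at 1.04 ± 0.54. Of the 14 genes, 0 had an unadjusted p under 0.05 in any of these 4 comparisons (limma). Among all probes, 1.12% did in the non-CL-side season change and 1.86% in the side difference in autumn. For the side difference in summer it was 175 of 12389 probes, and for the contrast 233 of 12375. With so few probes of any kind, the count of 0 is not read as a result about these genes. Without CL-side summer replicate 2 the side difference in summer was 0.46 for LAMB3, 0.07 for RHCG and 0.14 for PERP, and the contrast was 0.45, 0.34 and 0.60 for the same genes. These values were thus smaller without that array, and both comparisons share the CL-side summer arrays.

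Markers of other tissue that a biopsy could hold are set beside these values, and a relation between them was not tested. For each list, a score per array was formed by averaging, over its tested genes, how far each lay from its own mean over the arrays on the log2 scale. The score of the 14 squamous genes other than the members was −0.06, 0.88 and −0.02 on the CL side in summer, against −0.07, −0.27 and −0.13 on the CL-side autumn arrays. It was −0.36, 0.14 and 0.15 on the non-CL side in summer, against −0.16, −0.03 and −0.06 in autumn. Outside CL-side summer replicate 2 the score thus lay between −0.36 and 0.15 on every array, and CL-side summer replicate 1, where KRT15 was at 1.47 and PKP1 at 0.04, had no raised score. Summed over these 14 genes, the signal was 60.1 times the 75th percentile on CL-side summer replicate 2 and 28.6 to 51.6 times on the other 11.

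The list of cervical mucus and goblet cell genes, 5 of 14 measured, had scores of 0.38, 2.19 and −0.26 on the CL side in summer, against 0.67, 0.37 and −0.93 in autumn. On the non-CL side it had −0.72, −0.35 and −0.42 in summer, against −0.47, 0.09 and −0.55 in autumn. Its summed signal was 16.7 times the 75th percentile on CL-side summer replicate 2 and 1.18 to 2.93 times on the other arrays. BPIFB1, a secreted protein of airway and other mucosal glands, was at 3.60 on that array and at −1.21 to 0.56 elsewhere, and AGR2, a protein disulphide isomerase of mucus-secreting cells, was at 1.80 there and at −3.12 to −0.15 elsewhere. Not all genes of the list were highest there. SPDEF was at −0.53, below its 0.09 on CL-side autumn replicate 1 and 0.52 on non-CL-side autumn replicate 2. GABRP at −1.66 and BPIFA1 at −5.07 were also highest on CL-side summer replicate 2. The list's median CL-side season change was 0.78 with 4 of 5 genes above 0, and 0.10 with 3 of 5 without that array. KRT15 was 3.98 higher in summer on the remaining arrays, where this list's summed signal was 2.15 and 2.18 times the 75th percentile in summer, against 2.63, 2.06 and 1.5 times in autumn.

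Columnar epithelium, 18 of 24 genes measured, scored 0.01, 1.08 and −0.14 on the CL side in summer, against −0.25, −0.40 and −0.27 in autumn. On the non-CL side it scored −0.38, 0.10 and 0.18 in summer, against −0.27, 0.07 and 0.26 in autumn. The median CL-side season change of this list was 0.66 with 16 of 18 genes above 0, and 0.46 with 15 of 18 without CL-side summer replicate 2. Over all genes, 53.8% were above 0 in this comparison with all arrays. KRT8, the keratin of simple epithelia, was at 4 on that array and 1.92 to 2.74 on the others. Stroma, 12 of 18 measured, went the other way, with a score of −1.23 on that array and −0.48 and 0.23 on the other CL-side summer arrays, against 0.58, 0.73 and 0.30 in autumn. Its median CL-side change was −1 with 12 of 12 genes below 0, and −0.63 with 12 of 12 below 0 without that array. The non-CL-side stroma scores were −0.28 to 0.08 in summer and −0.13 to 0.22 in autumn.

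Smooth muscle, 9 of 13 measured, was high on CL-side summer replicate 2 at 1.57 but also on CL-side autumn replicate 1 at 1.41, where KRT15 was at −3.51 and KRT5 at −6.61. Its median CL-side season change was 0.24 with 6 of 9 genes above 0, and −0.53 with 8 of 9 below 0 without CL-side summer replicate 2. The remaining lists had median CL-side season changes of 1.24 for ciliated epithelium (9 genes), 0.61 for leukocytes (16 genes), 1.27 for immediate early genes (14 genes) and −0.22 for endometrial identity (9 genes), and of 0.76, 0.44, 1.03 and −0.01 without CL-side summer replicate 2. On the non-CL side the median season changes were 0.69 for ciliated epithelium, with 9 of 9 genes above 0, and 1.07 for immediate early genes. They were 0.26 for leukocytes and 0 for endometrial identity. The part of the cervical, columnar, stromal and other lists in the levels of KRT5, KRT15, PKP1 and TGM1 was not tested.

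**Figure D4:**
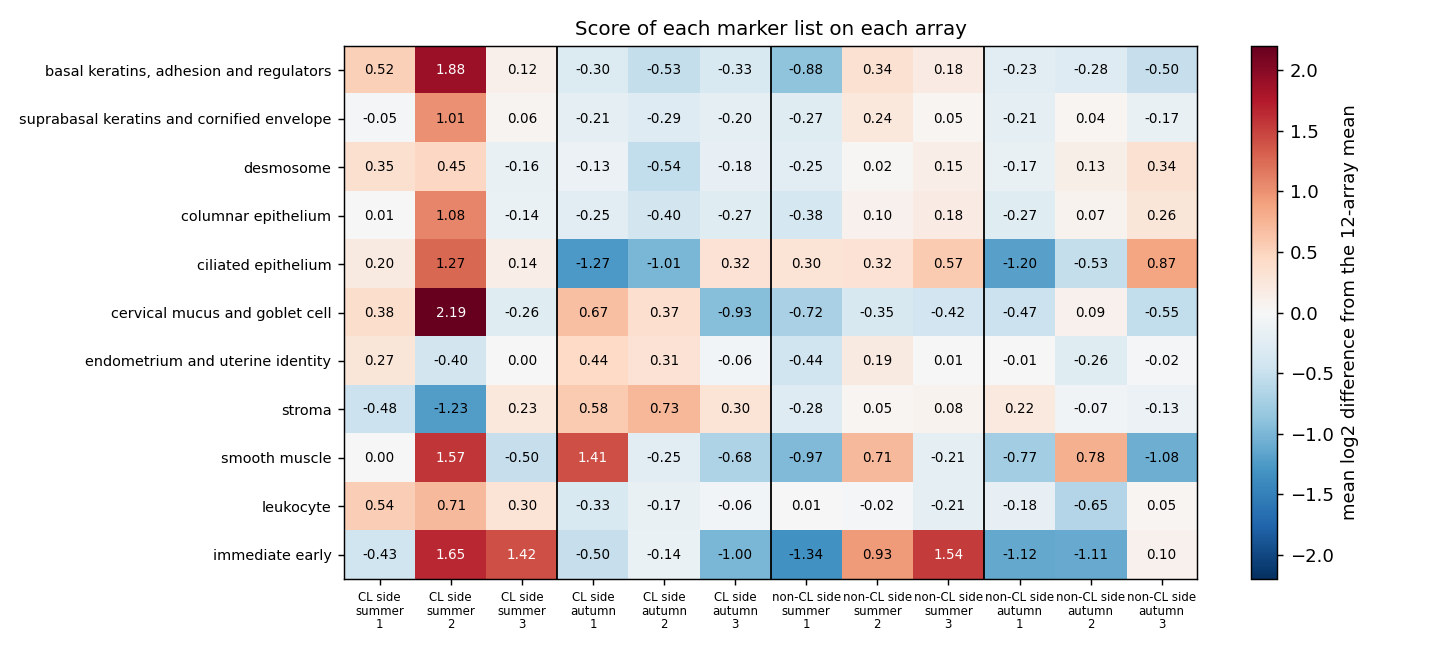
Score of each marker list (rows) on each array (columns), as the average distance of its tested genes from their mean over the 12 arrays (log2), with the value printed in each cell. CL-side summer replicate 2 has the highest score of all arrays for every list except endometrial identity and stroma. These scores are 1.88 for the basal, 1.01 for the suprabasal and 0.45 for the desmosome list. They are 1.08 for columnar epithelium, 1.27 for ciliated epithelium and 2.19 for cervical mucus. For smooth muscle, leukocytes and immediate early genes they are 1.57, 0.71 and 1.65. Its stroma score (−1.23) is the lowest of all arrays.

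Across the 12 arrays the levels of KRT5 and KRT15 had a Pearson r of 0.903 (Spearman's rho 0.902), and 0.835 without CL-side summer replicate 2. TGM1 had an r of 0.730 with KRT5 and 0.605 with KRT15, which were 0.486 and 0.296 without that array. PKP1 went the other way, with an r of 0.130 with KRT5 and 0.428 with KRT15, and 0.552 and 0.760 without it. PKP1 and TGM1 had an r of −0.0774. These are descriptions over the same 12 arrays, which share slides and groups.

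By the highest Pearson r over the 12 arrays among 5890 genes, the genes most like KRT15 were PIGR (0.953), the epithelial receptor for polymeric immunoglobulins, CYP4B1 (0.945), a cytochrome P450, GP2 (0.929), a membrane glycoprotein, NTS (0.927), which encodes neurotensin, and CHIA (0.922), an acidic chitinase. Without CL-side summer replicate 2 these r were 0.903, 0.886, 0.858, 0.851 and 0.863. The genes most like KRT5 were SCNN1A (0.975), a subunit of the epithelial sodium channel, RHCG (0.962), RRP1 (0.953), KRT8 (0.947) and the cytokine gene IL13 (0.945). Without that array these r were 0.917, 0.82, 0.791, 0.769 and 0.724. RHCG was the only one of these 10 genes on a squamous list, and KRT8 stood on the columnar list.

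The genes most like PKP1 were MRPS17 (0.931), a mitochondrial ribosomal protein gene, ACOT8 (0.914), an acyl-CoA thioesterase of peroxisomes, SLC11A2 (0.908), a metal ion transporter, TMCO2 (0.895) and MBTPS2 (0.888), a membrane protease. Without CL-side summer replicate 2 they stood between 0.888 and 0.951. Those most like TGM1 were TAB1 (0.917), TBX19 (0.910), PNMA2 (0.882), CISD1 (0.860) and BTN1A1 (0.854), and between 0.751 and 0.86 without that array. The 4 genes had no gene in common among these nearest neighbours, and the median r over all genes was 0.106 for KRT5, 0.0907 for KRT15, 0.00755 for PKP1 and 0.024 for TGM1. Only the 5 nearest of 5890 genes were compared, so the lack of shared names does not show separate patterns. An r over 0.9 was found for 39 genes with KRT5, 11 with KRT15, 3 with PKP1 and 2 with TGM1.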

How the data were processed

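Total RNA, 400 ng per sample, was amplified and labelled with Cy3, and each sample was hybridised to a 1-colour Agilent bovine array, per the labels' protocols. The deposited scanner files hold spot intensity on a linear scale, background-subtracted and detrended by Feature Extraction 9.5.1.1, per the file headers (9.5, per the submitters' processing notes). The authors also deposited a log2 table of the same arrays, whose scale and centring are not stated. Its columns correlated at 0.961 to 0.990 with the scanner values on the log2 scale, ran in the same direction and had medians of −2.79 to −2.61, with their 75th percentiles near 0. How low signals were treated in it is unknown.

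Of 15208 non-control probes, 7227 were named, giving 6893 symbols, and 7981 stayed unnamed. Names came from the files or from the ARS-UCD2.0 gene table, and no coordinates are given, because the build behind the array design is not stated. Each array's processed signal was divided by its 75th percentile over non-control probes, floored at −7.28 after scaling (per array, the lowest signal among probes called well above background; the highest of these 12 values was used) and put on the log2 scale. Outlier-flagged values (466) were left out. A probe was tested if every array of some group called it well above background, which kept 12404 probes and removed 2804. Between 79.2% and 84.1% of probes were well above background on an array, and the number of arrays limits the precision.

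All 12 arrays entered 1 limma fit (limma 3.58.1, R 4.3.3, lmFit and eBayes) with a mean for each of the 4 groups and 8 residual degrees of freedom. Tests were two-sided, with Benjamini-Hochberg adjustment over all kept probes and a threshold of 0.05. The code was tested on simulated data. Errors are SE of the fit unless named as SD.

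Named were the 4 members and, of each squamous list, the other tested genes with the 3 smallest p on the CL side. In the other comparisons only the gene of each list with the smallest p is given. Marker genes were named by level where a result turns on them. The genes too dim to test, the non-CL-side levels of ZNF750, and HOXA10, FOXL2, OXTR, ESR1, PGR, BPIFB1, AGR2, SPDEF, GABRP, BPIFA1 and KRT8 were chosen for display after their values were seen. The members and all lists were chosen with earlier results of these data known.

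Same-numbered samples deviated together: the correlation of their deviations from the group means was 0.500, 0.397 and 0.270 between the horns in summer, 0.295, 0.137 and 0.376 between the horns in autumn, 0.241, 0.108 and 0.201 between seasons on the CL side and 0.304, 0.161 and 0.345 between seasons on the non-CL side. Every pair was above 0.1. The numbers were treated as pairing the samples only in the same-numbered horn differences and in the alternatives with a block. The main fit had no block, so its SE, intervals and p-values ignore the pairing. This comes from the data, since the labels do not state a pairing. Alternatives were the probe filter, normalization, background correction, floor, the authors' table, slide, replicate block, a random block and each array left out. Each member had 1 probe, so another probe could not be tried.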

Additional observations from a re-analysis of the deposited data

How the results depend on the processing

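The count of probes past the threshold was 0 in every comparison with all arrays, at 1228 (CL-side season), 139 (non-CL-side season), 175 (side in summer), 230 (side in autumn) and 233 (contrast between the sides) with an unadjusted p under 0.05 (limma). On the first slide alone it was 1 for the non-CL-side season. With an array left out it ran from 0 to 7 for the CL-side season (2, 4 and 7 without CL-side summer replicate 1, CL-side summer replicate 3 and CL-side autumn replicate 3), from 0 to 1 for the side in summer and for the contrast (1 in both without CL-side summer replicate 3), and from 0 to 6 for the side in autumn (6 without CL-side autumn replicate 3). None of the 4 members was called under any alternative, and the season change on the CL side kept its sign for all 4.

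With the replicate number as a block, the CL-side season change had adjusted p-values of 0.364 for KRT5 (unadjusted p = 0.00903), 0.332 for KRT15 (unadjusted p = 0.00171), 0.425 for PKP1 and 0.364 for TGM1, and the block changed no call. It moved the counts with an unadjusted p under 0.05 to 1602, 244, 420, 528 and 550 in the same order. Signs turned only for small changes: the side difference of KRT5 in autumn was 0.37 in the authors' table. With an array left out, the side difference of PKP1 in summer ran from −0.43 to 0.39, and the non-CL-side season change from −0.59 to 0.14 for KRT5, from −0.01 to 0.6 for PKP1 and from −0.3 to 0.07 for TGM1. The side difference of PKP1 was −0.43 without CL-side summer replicate 1 and −0.23 without non-CL-side summer replicate 1. The non-CL-side season change of KRT5 was 0.14 without non-CL-side summer replicate 1 and 0 without non-CL-side autumn replicate 2. That of TGM1 was 0.07 without non-CL-side summer replicate 3 or non-CL-side autumn replicate 2, and that of PKP1 was −0.01 without non-CL-side autumn replicate 2. An alternative added after seeing the data, leaving out CL-side summer replicate 2, lowered the squamous genes above 0 for the side in summer to 9 of 18. The cause of these turns was not tested. Only KRT5 among the members was not well above background on all 12 arrays, and it is left out when all 12 are required. The first slide holds too few autumn arrays for the side difference in autumn.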
